A study of Ovis aries and Capra hircus and Bos taurus with 26 samples.

Results

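The regions described here are the peaks of H3K27ac and H3K4me3 on sheep chromosomes 1, 2 and 3, together with the peaks on the separate chromosomes of cattle and goats that correspond to them. By name, the counterparts are cattle and goat chromosomes 1 and 3 for sheep chromosome 1, chromosomes 2 and 8 for sheep chromosome 2, and chromosomes 5 and 11 for sheep chromosome 3. All peaks on these 15 sequences were taken, whatever their strength, so no measured value chose them. They numbered 161006 of the 616400 peaks in 17 lists (26.1%), and a library contributed between 6452 and 14229. The libraries came from chromatin immunoprecipitation with sequencing (ChIP-seq) on the liver of 9 adult animals, which were Holstein cattle, Texel sheep and Yunnan black goats, 3 of each, lettered A, B and C. H3K27ac was profiled in cattle B and C and in all sheep and goats (8 lists), and H3K4me3 in all 9 animals (9 lists). Liver is a mixture of cell types, so fewer cells that carry a mark and less of the mark in each cell cannot be told apart. The labels name no treatment or genetic change, and an annotation matching these assemblies was not used here, so liver marker genes were not checked and regions are named by position.

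Most chromosomes of cattle and goats are acrocentric, with the centromere close to one end. In the lineage of domestic sheep, pairs of such chromosomes were joined at their centromeric ends by Robertsonian (centric) fusion, which gave the 3 large metacentric chromosomes. Each arm of a sheep metacentric therefore corresponds to a whole chromosome of the other species, and the arms are named here by their cattle and goat number (arm 3 of sheep chromosome 1, and so on). Fusion joins chromosomes without altering which genes lie along an arm, but it removes a chromosome end and puts sequences near the former centromeres side by side. H3K4me3 is a histone mark of promoters, above all those of CpG-rich and active genes. H3K27ac is found at active promoters and also at active enhancers, so an H3K27ac peak without H3K4me3 is the usual sign of a distal enhancer. The 15 sequences are called the fused set in every species, and the remaining 23 autosomes of each species are the comparison. The methods describe subsampling of the reads to 1 depth for all paired-end libraries. Peak lists do not show it and it was not checked here, and values per library rest on its number of peaks.

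The arms could be read from the peaks themselves. The pattern of consensus regions (peaks found in at least 2 animals) in 2 Mb windows of the sheep chromosomes was matched to the same pattern in cattle and goats, with a path that favours neighbouring windows staying collinear. With cattle, 300 of 300 windows of sheep chromosome 1, 264 of 264 of chromosome 2 and 240 of 240 of chromosome 3 were placed on the expected counterparts. With goats these numbers were 299 of 300, 264 of 264 and 235 of 240. Of these windows, 255, 215 and 210 held the 10 consensus regions needed for a score of their own. The path alone placed the rest. Taken 1 window at a time, without the path, 37.4% of the 680 scored windows had their single best match among all cattle autosomes on a counterpart, while the counterparts made up 10.2% of the autosomal span on average. With goats, 55.1% of the windows did so, against 10.2% of the span. The median correlation of a window with its place on the path was 0.57 for cattle and 0.64 for goats, which describes the likeness of patterns that the path was built to find. The order was the same with both references: arm 3 then arm 1 on sheep chromosome 1, arm 8 then arm 2 on chromosome 2, and arm 11 then arm 5 on chromosome 3.

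**Figure D1:**
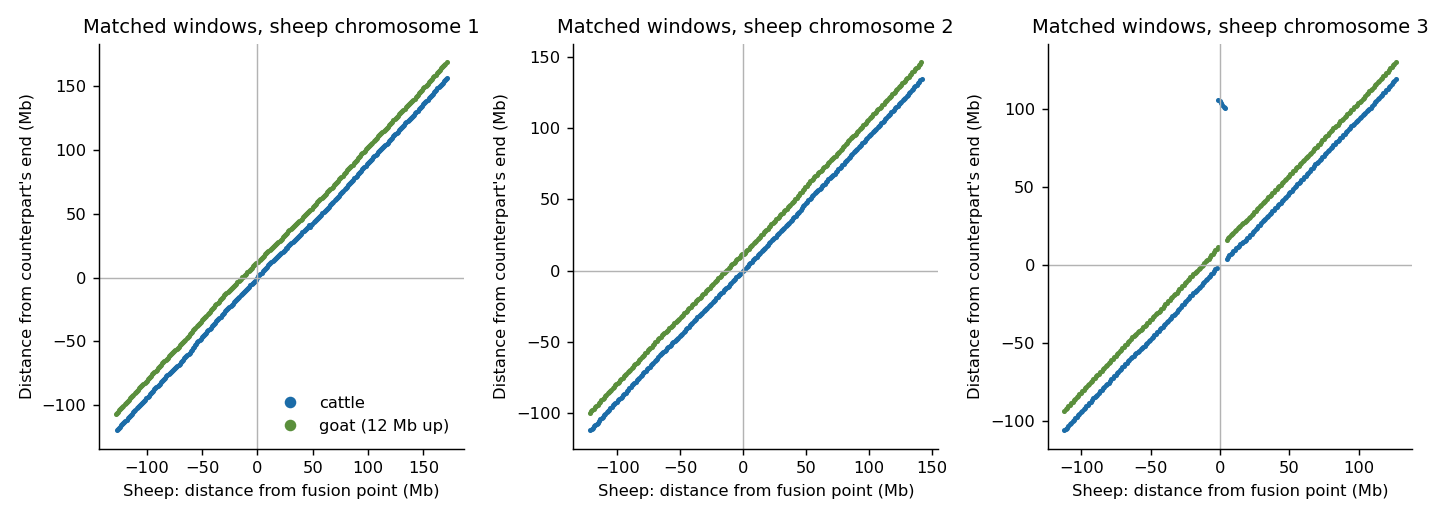
Matched 2 Mb windows of sheep chromosomes 1 to 3. The x axis is the distance from the sheep fusion point (Mb) and the y axis the distance from the matching end of the cattle or goat counterpart (Mb, negative for the first arm); goat points are drawn 12 Mb higher so that they do not hide those of cattle. The points form a line through the fusion point on each chromosome, apart from windows just beside the fusion point of sheep chromosome 3, which were placed far along cattle chromosome 5.

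Carried on base for base to the ends of the counterparts, without scaling for the longer sheep sequence, the runs of windows of both arms met close together. With cattle as the reference the fusion point came out at 128.32 Mb of sheep chromosome 1, 122.36 Mb of chromosome 2 and 113.25 Mb of chromosome 3 (Oar_rambouillet_v1.0). The ends of the runs missed each other by -0.52 Mb (an overlap), 0.36 Mb and 1.1 Mb, which gives the precision of these points. With goats as the reference the points were 129.08, 122.63 and 113.24 Mb, and the ends of the runs missed each other by 1.16, 0.78 and 1.24 Mb. The point of sheep chromosome 1 moved between the references by more than the 0.52 Mb of its overlap. Goat chromosomes 3 and 2 ran against the direction of their cattle namesakes in ARS1, so their last megabases, and not their first, face the fusion point. The sheep sequences were longer than the summed counterparts, as judged by the last peak. The fused set spanned 1.07 times the length of the cattle counterparts and 1.08 times that of the goats. The other autosomes showed the same ratios, 1.07 and 1.08, so a density per Mb in sheep refers to a longer sequence throughout.

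The density of peaks differed more between arms than between species, and the arms of the sheep chromosomes fell into the same dense and sparse groups as the separate chromosomes. The mean H3K27ac density of sheep was below those of cattle and goats on each of the 6 arms. Arms 3, 5 and 11 were peak-rich and arms 1, 2 and 8 peak-poor in each of the 17 libraries. Arm 1, the right arm of sheep chromosome 1, was the poorest in every library. It held 11.9 ± 1.1 H3K27ac peaks per Mb in cattle (SD, n = 2), 10.8 ± 0.68 in the sheep and 13.8 ± 1.5 in the goats (SD, n = 3 each). Arm 3, its partner on the same sheep chromosome, held 18.1 ± 1.3 H3K27ac peaks per Mb in cattle, 16.4 ± 0.78 in the sheep and 20.3 ± 1.8 in the goats. Sheep chromosome 1 thus consists of a dense arm and a sparse arm.

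For H3K4me3, arm 1 held 6.72 ± 0.35 peaks per Mb in cattle, 7.25 ± 0.51 in the sheep and 6.80 ± 0.67 in the goats (SD, n = 3 each). Arm 3 held 11.3 ± 0.52, 12.3 ± 0.50 and 12.1 ± 0.89 H3K4me3 peaks per Mb in the same order. The arms of sheep chromosome 2 were both sparse. Arm 2 had 8.24 ± 0.45 H3K4me3 peaks per Mb in cattle, 8.85 ± 0.56 in the sheep and 8.47 ± 0.71 in the goats, and arm 8 had 7.82 ± 0.46, 8.28 ± 0.47 and 7.97 ± 0.72. The arms of sheep chromosome 3 were both dense. Arm 11 had 11.2 ± 0.74 H3K4me3 peaks per Mb in cattle, 11.6 ± 0.47 in the sheep and 11.6 ± 1.1 in the goats, and arm 5 had 10.9 ± 0.69, 11.6 ± 0.62 and 11.3 ± 0.85. Neighbours in this order did not always separate. Arm 2 exceeded arm 8 in 9 of 9 libraries for H3K4me3 but in 5 of 8 for H3K27ac, and arm 3 exceeded arm 11 in 8 of 9 and 5 of 8. The order of the arms is a description, since the arms were grouped after their values were seen.

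**Figure D2:**
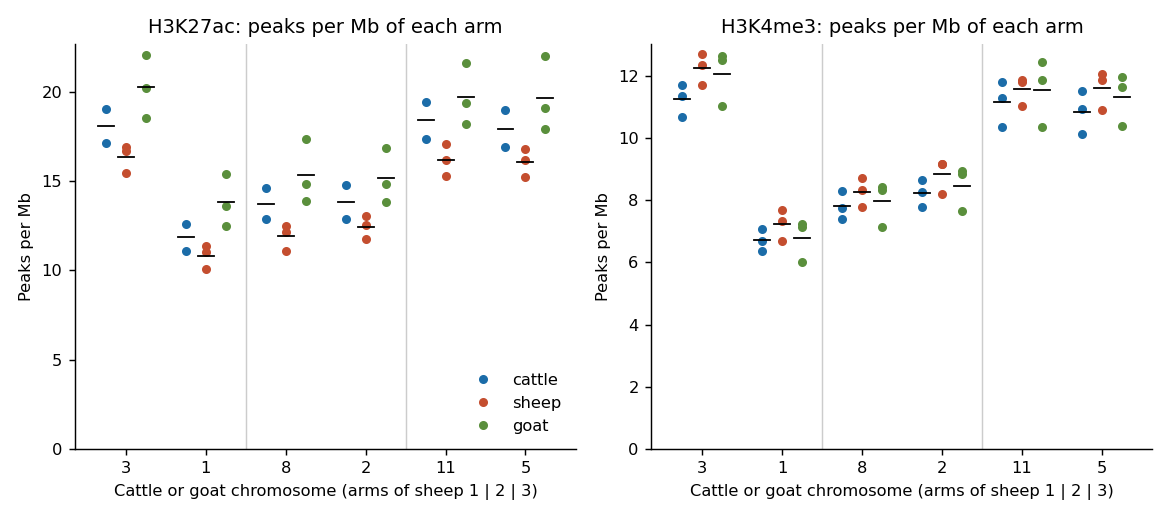
Peaks per Mb (y axis) on the 6 arms (x axis, named by the cattle and goat chromosome and grouped by the sheep chromosome they form), for H3K27ac on the left and H3K4me3 on the right. Points are libraries and bars species means. Arms 3, 11 and 5 stand above arms 1, 8 and 2 in every species, whether the arm is a chromosome of its own or part of a sheep metacentric.

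The consensus regions gave the same dense and sparse arms but another order of species. Their H3K27ac density in sheep lay above that of cattle and below that of goats on each arm. On arm 3 it was 14.8 regions per Mb in sheep, 13.7 in cattle and 18.2 in goats. A consensus region needs 2 animals, and cattle have 2 H3K27ac lists against 3 in sheep and goats. The effect of this was not tested. On sheep chromosome 1, arm 3 held 1901 H3K27ac and 1490 H3K4me3 regions over 128 Mb, and arm 1 held 1646 and 1159 over 173 Mb. The sum made sheep chromosome 1 an average of unlike parts. Its 11.8 H3K27ac regions per Mb ranked 17 of 26 sheep autosomes, while in cattle chromosome 3 (13.7 per Mb) ranked 10 and chromosome 1 (8.67 per Mb) ranked 25 of 29. In goats chromosome 3 (18.2 per Mb) also ranked 10 of 29, and chromosome 1 (12.6 per Mb) ranked 23. Sheep chromosome 2 ranked 18 of 26 and sheep chromosome 3, with 14.5 H3K27ac regions per Mb, ranked 9 of 26.

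The balance between arms was compared between sheep and the unfused species as the log2 ratio of peaks on the first arm to peaks on the second. This asks whether the peaks were divided between the arms of a metacentric as they were between the separate chromosomes. For H3K27ac the log2 ratio of arm 3 to arm 1 was 0.21 and 0.24 in the cattle libraries. It was 0.14 to 0.19 in the sheep and 0.13 to 0.18 in the goats. For arm 8 to arm 2 the H3K27ac ratio was -0.28 and -0.27 in cattle, -0.31 to -0.28 in sheep and -0.26 to -0.22 in goats. For arm 11 to arm 5 it was -0.13 in both cattle, -0.17 to -0.15 in sheep and -0.19 to -0.14 in goats. The sheep means lay within 0.03 of the average of cattle and goats on this scale, at -0.03, -0.03 and -0.02.

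The H3K4me3 ratios differed between sheep and the unfused species by -0.07 for sheep chromosome 1, 0.03 for chromosome 2 and -0.05 for chromosome 3. The lowest p of the 6 comparisons was 0.0238 (H3K4me3, sheep chromosome 3, two-sided exact permutation test over 1680 arrangements), with an adjusted p of 0.143. In that comparison the sheep ratios lay between -0.20 and -0.16, those of cattle between -0.14 and -0.12, and those of goats between -0.16 and -0.11, so sheep and goats overlapped. No comparison of arm balance passed the threshold of 0.05 after adjustment (0 of 6 with the exact permutation test, and 1 of 6 before adjustment). Without goat replicate A that same ratio passed (adjusted p = 0.0429, exact permutation test), and among the 20000 strongest peaks of each library the H3K27ac ratio of sheep chromosome 2 passed instead (log2 difference -0.11, adjusted p = 0.0214).

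The next comparison asked which share of a library's autosomal peaks lay on the fused set, and whether the share was higher where the chromosomes are joined. Sheep alone carry the fusions, so in each comparison of sheep with the other species fusion cannot be told apart from species, breed or assembly. For H3K27ac the share was 28.47% and 28.97% in the cattle. It was 29.3%, 29.2% and 29.2% in sheep A, B and C, and 28.9%, 29.2% and 28.8% in goats A, B and C. The lowest sheep library (29.18%) lay just below the highest goat library (29.20%), so the groups touched. The sheep mean exceeded the average of the unfused species by 0.41 percentage points (p = 0.0429, two-sided exact permutation test over 560 arrangements). This is a small excess, and it lost the threshold without cattle replicate B (0.28 points, p = 0.0786), where 1 library stands for cattle and is taken to vary like the others, and also without sheep replicate A, B or C or goat replicate A or C (p between 0.0667 and 0.129, the same exact test). Counted over all sequences, X and unplaced scaffolds included, it was 0.25 points (p = 0.254, exact permutation test).

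For H3K4me3 the share on the fused set was 27.7%, 27.6% and 27.4% in cattle A, B and C. It was 27.5%, 27.9% and 27.9% in the sheep and 27.5%, 27.6% and 27.5% in the goats. Sheep A stood with the cattle and goats, and sheep B and C stood above them. The difference of 0.25 points did not pass the threshold (p = 0.0595, two-sided exact permutation test over 1680 arrangements, where the smallest possible p is 0.0119). Without sheep replicate A it was 0.37 points (p = 0.0357) and without cattle replicate A 0.28 points (p = 0.0482, both by the same exact test). By covered length it was 0.083 points (p = 0.536), and over all sequences, where unplaced scaffolds enter the total, 2.07 points (p = 0.429, exact permutation tests).

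**Figure D3:**
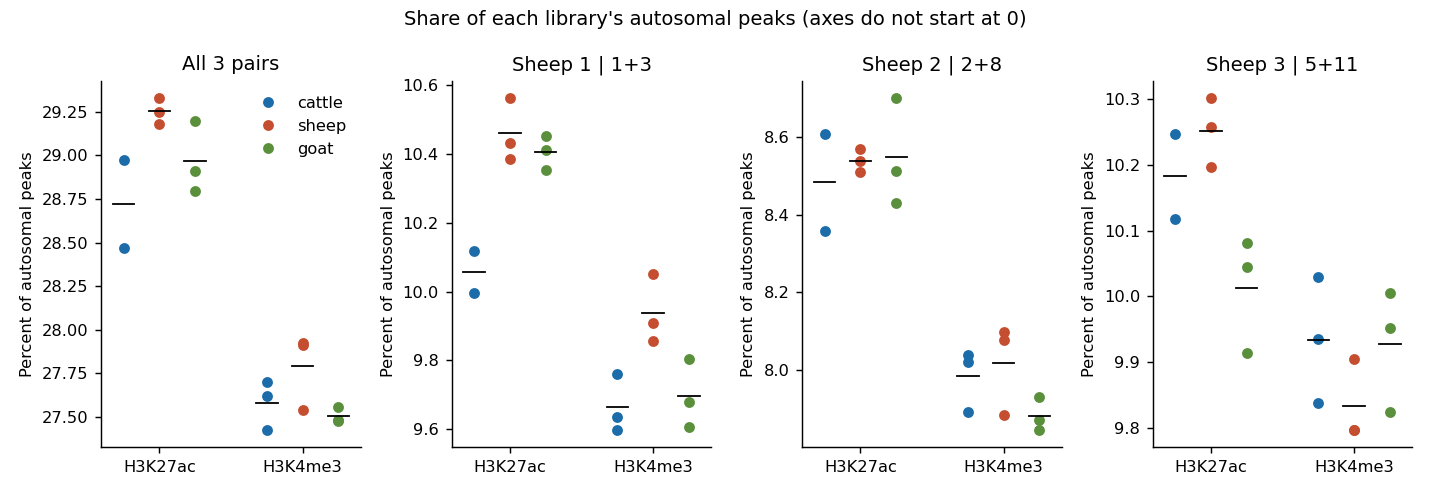
Percent of autosomal peaks (y axis) on the fused set and on each pair of chromosomes, by mark (x axis) and species. Points are libraries, bars species means, and the axes do not start at 0. H3K27ac shares lie above H3K4me3 shares in every panel's species means, while the species differ by fractions of a percentage point.

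Seen by pair, the share on sheep chromosome 1 or chromosomes 1 and 3 was 10.1% ± 0.087 of H3K27ac peaks in cattle (SD, n = 2), 10.5% ± 0.093 in the sheep and 10.4% ± 0.049 in the goats (SD, n = 3 each). Both cattle libraries lay below the sheep and goats. For sheep chromosome 2 or chromosomes 2 and 8 the H3K27ac share was 8.48% ± 0.18, 8.54% ± 0.030 and 8.55% ± 0.14 in cattle, sheep and goats, which overlapped. For sheep chromosome 3 or chromosomes 5 and 11 it was 10.2% ± 0.092, 10.25% ± 0.053 and 10.01% ± 0.088, with the goats below the cattle and sheep. For H3K4me3, the pair of sheep chromosome 1 had the highest share in sheep, 9.94% ± 0.10, against 9.66% ± 0.086 in cattle and 9.70% ± 0.10 in goats (SD, n = 3 each). The 3 sheep libraries there lay between 9.86% and 10.1%, above the other 6.

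The differences between species by pair were read against those of all 26 sets of corresponding autosomes, tested together for both marks. With the exact permutation test on F and adjustment over all 52 tests, 11.5% of the sets passed the threshold for H3K27ac and 23.1% for H3K4me3, and 0 of the 6 tests of the fused pairs did. Before adjustment 3 of the 6 were below 0.05. These were the pair of sheep chromosome 1 for H3K27ac (p = 0.0179, adjusted p = 0.0663) and for H3K4me3 (p = 0.025, adjusted p = 0.0722), and the pair of sheep chromosome 3 for H3K27ac (p = 0.025, adjusted p = 0.0722, exact permutation tests on F). The sheep shares departed from the unfused average by log2 differences of 0.03, 0.00 and 0.02 for H3K27ac (pairs of sheep chromosomes 1, 2 and 3) and of 0.04, 0.02 and -0.01 for H3K4me3. The 23 other sets are single chromosomes in all species, and a set need not hold the same content in each. They had a median difference of 0.02 in size for H3K27ac and 0.04 for H3K4me3, with maxima of 0.13 and 0.23. By size of this difference, the fused pairs ranked 9, 22 and 16 of 26 for H3K27ac and 14, 22 and 23 for H3K4me3. With every summit counted 2 of the 6 tests passed, for H3K27ac on the pair of sheep chromosome 1 (adjusted p = 0.031) and H3K4me3 on that of chromosome 3 (adjusted p = 0.0464, exact permutation tests on F).

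The marks differed more than the species did. The fused set held a larger share of H3K27ac peaks than of H3K4me3 peaks, by 1.36 percentage points averaged over species (p = 0.00025, two-sided exact permutation of the marks within species, the smallest p its 4000 arrangements allow). In every species each H3K27ac library lay above each H3K4me3 library. The set made up 30.4% to 30.5% of the autosomal span, more than its share of either mark in any library, so it was poor in both marks for its length. The difference was 0.80 points among the 20000 strongest peaks and 3.804 points over all sequences (p = 0.00025 each, the same exact test). By animal, the difference was 1.201 ± 0.50 points in cattle (SD, n = 2), 1.46 ± 0.29 in the sheep and 1.46 ± 0.16 in the goats (SD, n = 3 each), and it did not differ between species past the threshold (exact permutation test on F, p = 0.629).

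A larger part of the H3K27ac peaks on the fused set lacked H3K4me3, and this class holds the distal enhancers. On the fused set 54.2% and 57.9% of the H3K27ac peaks of cattle B and C had no H3K4me3 overlap in the same animal, against 52.7% and 54.6% on the other autosomes. In sheep A, B and C the shares were 49.9%, 43.0% and 47.4% on the fused set and 46.4%, 39.6% and 44.5% elsewhere. In goats A, B and C they were 52.1%, 53.7% and 50.3% on the fused set and 49.0%, 50.2% and 47.6% elsewhere. The fused set was higher in 8 of 8 animals, by 2.96 points on average and by 1.52 to 3.49 in single animals (two-sided exact sign-flip test, p = 0.00781, the smallest p that 8 animals allow). Among the 20000 strongest peaks it was 1.86 points, with the same p. All animals were scored on the same chromosomes, so this p speaks of animals and not of other sets of chromosomes. The excess did not differ between species past the threshold (exact permutation test on F, p = 0.396), at 2.40 points in cattle, 3.20 in the sheep and 3.10 in the goats.

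By arm, these peaks were the mirror of the density. Arms 1, 2 and 8 had a higher share of H3K27ac peaks without H3K4me3 than arms 3, 5 and 11 in each of 8 animals. In sheep, arm 1 had 50.1% ± 3.9 and arm 3 had 43.7% ± 3.3 (SD, n = 3 each), although both lie on the same chromosome. In goats, arm 1 had 57.4% ± 1.4 and arm 3 had 48.4% ± 1.1, and in cattle 58.5% ± 2.5 and 54.3% ± 3.0 (SD, n = 2). Arm 1 had the highest share of the 6 arms in every animal. Among the consensus regions, 54.9% of the H3K27ac regions of goat chromosome 1 were enhancers by this definition, the second rank of 29 autosomes, and 48.1% of those of cattle chromosome 1 (rank 6). Over the fused set the consensus regions comprised 3995 enhancers and 4543 promoters in cattle, 4295 and 5422 in sheep and 5668 and 5594 in goats, promoters being H3K27ac regions of which H3K4me3 covered at least 50%.

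H3K4me3 peaks were slightly wider on the fused set. The median width in cattle A, B and C was 790.5, 739 and 789.5 bp on the fused set and 769, 699 and 757 bp on the other autosomes. In the sheep it was 739, 705 and 781 bp against 708, 695 and 765 bp, and in the goats 824, 807 and 823 bp against 787, 778 and 797 bp. The fused set was wider in 9 of 9 animals, by 0.05 on the log2 scale (two-sided exact sign-flip test, p = 0.00391, the smallest p that 9 animals allow). With peaks merged within 500 bp the difference was 0.029 (exact sign-flip test, p = 0.00781). Here too the test speaks of animals and not of other sets of chromosomes. The median fold enrichment given by the peak caller moved the same way and was higher on the fused set in 9 of 9 H3K4me3 libraries, with 6.65 to 7.74 on the set and 6.43 to 7.42 elsewhere. More than 1 summit was called in 30.9% to 39.6% of H3K4me3 peaks on the set and in 30.1% to 38.2% elsewhere, again higher on the set in 9 of 9 libraries.

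The width of H3K27ac peaks showed no such constant direction. The median was 461 to 516 bp on the fused set and 457 to 521 bp elsewhere, and the log2 difference was above 0 in 3 animals and below 0 in 5 (mean -0.0007, p = 0.766, two-sided exact sign-flip test). Among the 20000 strongest peaks, however, the fused set was wider by 0.04 on the log2 scale (p = 0.00781), and at −log10 q of at least 5 by 0.02 (p = 0.00781, the same exact test), so the direction of the H3K27ac width turned with the choice of peaks. The median fold enrichment of H3K27ac peaks was higher on the fused set in 6 of 8 libraries and the percent of peaks with several summits in 7 of 8.

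Recurrence, the share of peaks that a peak of another animal of the species covered by 50% or more, differed by under 1 percentage point on average between the fused set and the rest. The values of a species are computed from the same lists, with 1 partner in cattle for H3K27ac, so the animals are not independent in the tests of recurrence. For H3K27ac it averaged 77.5% on the fused set and 78.2% on the other autosomes, lower on the set in 7 of 8 animals (a difference of -0.71 points, with p = 0.0703 by the exact sign-flip test, two-sided). It passed the threshold at −log10 q of at least 5 (-0.83 points, p = 0.00781) and among the 20000 strongest peaks (-0.50 points, p = 0.0234, the same exact test). It also passed without sheep replicate A (-0.86 points) or sheep replicate C (-0.95 points, p = 0.0156 each, the same exact test). For H3K4me3 recurrence averaged 90.9% on the set and 90.7% elsewhere, higher on the set in 6 of 9 animals (difference 0.21 points, p = 0.203, exact sign-flip test). In sheep B and C it was lower on the set, by 0.49 points each, and without sheep B it was 0.32 points higher over the other animals and without sheep C 0.35 points higher (p = 0.0469 each, exact sign-flip test).

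**Figure D4:**
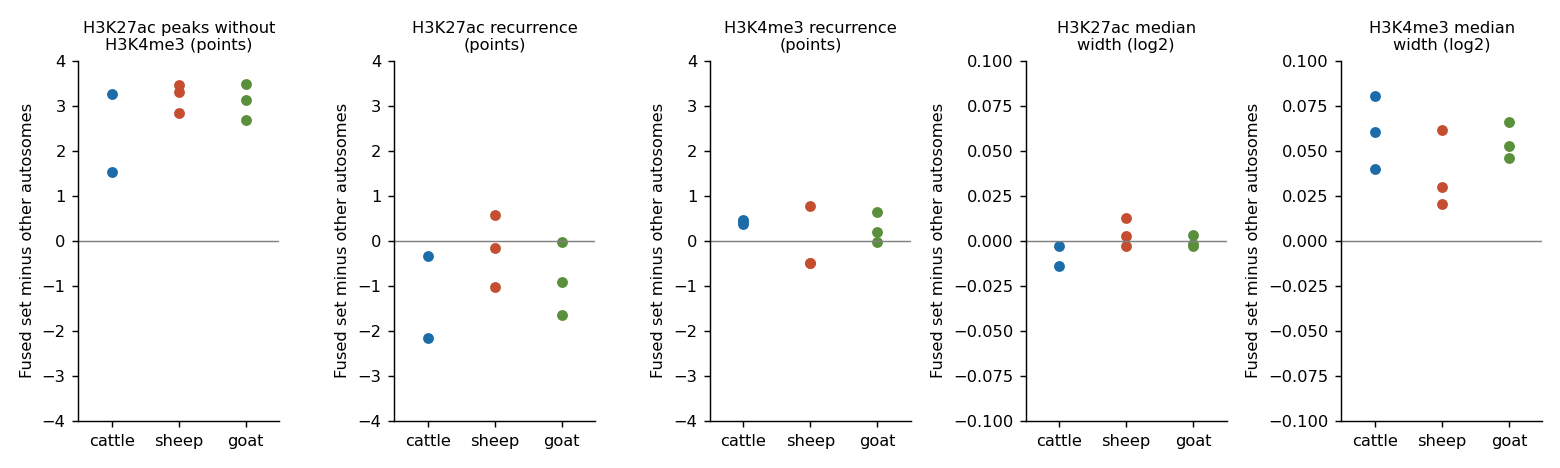
Difference between the fused set and the other autosomes in each animal, by species. The left 3 panels are in percentage points and the right 2 in log2 of the median width, and points are animals. H3K27ac peaks without H3K4me3 and the H3K4me3 width lie above 0 in every animal, and the other measures fall on both sides of 0.

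The sequence around the fusion points was then compared with the matching ends of the unfused chromosomes. Other chromosome ends of the sheep were not compared. The windows of sheep chromosome 3 from -1.25 to 3.75 Mb of the fusion point, most of them on arm 5, were placed far along cattle chromosome 5. With goats, windows there were placed on no counterpart. Part of the 10 Mb, mainly that of arm 5, thus has no collinear match to the end it is set against. Within 10 Mb of the fusion point, over the 6 arms, H3K27ac peaks numbered 12.65, 11.37 and 12.75 per Mb in sheep A, B and C. At the matching ends they numbered 13.35 and 15.65 per Mb in cattle B and C and 14.48, 16.55 and 16.13 in goats A, B and C. Every sheep library lay below every cattle and goat library, which gave -0.30 on the log2 scale (two-sided exact permutation test over 560 arrangements, p = 0.0339). By the peaks of single libraries, the whole fused set was also sparser in sheep, with 13.7 ± 0.75 H3K27ac peaks per Mb (SD, n = 3) against 15.4 ± 1.3 in cattle (SD, n = 2) and 17.1 ± 1.7 in goats (SD, n = 3), a log2 difference of -0.24. By consensus regions the set held 12.3 per Mb in sheep, 11.6 in cattle and 15.4 in goats, so the direction against cattle turned. When the sheep distance was set to the stretch matched to 10 Mb of cattle (10.3 to 10.9 Mb), the density per Mb of sheep sequence differed by -0.29 (p = 0.0393), while the count per 10 Mb of cattle sequence, which does not divide out the longer sheep stretch, differed by -0.19 (p = 0.0821, exact permutation tests). As a percent of the library's peaks on the fused set it was -0.16 within 10 Mb (p = 0.00893), and as a percent of the library's peaks on the fused set over that stretch it was -0.06 (p = 0.141, all by the same exact test). Among the 20000 strongest peaks of each library the density differed by -0.15 (p = 0.00179, exact permutation test). It also missed the threshold without cattle replicate C (-0.24, p = 0.15, with 1 library left for cattle), sheep replicate B (-0.25, p = 0.0714) or any of the goats (-0.28 to -0.33, p = 0.0571 each, exact permutation test).

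H3K4me3 peaks near the fusion point were 8.65, 9.52 and 9.52 per Mb in sheep A, B and C. Cattle A, B and C had 10.2, 9.57 and 9.78 per Mb and goats A, B and C 7.92, 9.18 and 9.62. The sheep lay among the goats, and the log2 difference was -0.02 (p = 0.869, two-sided exact permutation test over 1680 arrangements). Over the stretch matched to 10 Mb of cattle the sheep count per 10 Mb of cattle sequence differed by 0.10 (p = 0.274) and the density per Mb of sheep sequence by 0.010 (p = 0.905, exact permutation tests). Within 10 Mb, the density of each library's 20000 strongest autosomal peaks differed by -0.29 (p = 0.0238, by the same exact test). As a percent of the peaks on the fused set it was -0.19 (p = 0.0238), with 7.01% ± 0.082 in sheep, 8.54% ± 0.23 in cattle and 7.47% ± 0.15 in goats (SD, n = 3 each), and over the matched stretch -0.07 (p = 0.417, both by the same exact test).

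Near the fusion point arms 11 and 3 had the highest mean counts of both marks and arm 5 the lowest in every species, while the order of arms 1, 2 and 8 differed between species. Arm 11 carried the most H3K27ac peaks within 10 Mb in every species, 211 ± 37 in cattle (SD, n = 2), 162 ± 9.9 in the sheep and 220 ± 8.1 in the goats (SD, n = 3 each). Arm 5, which meets it on sheep chromosome 3, carried 118 ± 4.9, 80.7 ± 11 and 96.0 ± 13, the fewest of the 6 arms in each species. For H3K4me3, arm 11 carried 135 ± 8.1, 132 ± 3.0 and 137 ± 13 peaks and arm 5 62.0 ± 4.6, 57.0 ± 9.5 and 46.0 ± 5.6 in cattle, sheep and goats (SD, n = 3 each). Goat arm 1 carried 62.3 ± 8.1 H3K4me3 peaks near its end, against 102 ± 6.9 in cattle and 87.7 ± 4.5 in sheep.

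Within 100 Mb, in steps of 10 Mb, both marks were densest at 20 to 30 Mb in each species, and the lines then parted. Greater distances, which not every arm reaches, were left out of these steps. H3K4me3 reached 11.01 ± 0.47 peaks per Mb at 20 to 30 Mb in cattle, 11.5 ± 0.51 in the sheep and 10.8 ± 0.98 in the goats. At 40 to 50 Mb it was 6.32 ± 0.27, 5.98 ± 0.43 and 7.04 ± 0.64 (SD, n = 3 each). For H3K27ac the same stretch of 20 to 30 Mb held 18.3 ± 1.6 peaks per Mb in cattle (SD, n = 2), 16 ± 0.76 in the sheep and 19.7 ± 2.2 in the goats (SD, n = 3 each). At 30 to 40 Mb H3K27ac was 10.8 ± 0.88, 11.5 ± 0.69 and 10.8 ± 1.1 in the same order, with the highest mean in sheep, and at 40 to 50 Mb it was 11.8 ± 0.62, 8.96 ± 0.24 and 13.6 ± 1.9. From the first to the second of these steps H3K27ac was thus higher in the means of cattle and goats and lower in that of sheep. H3K4me3 was higher in goats and lower in sheep, while the cattle mean moved little, from 6.43 to 6.32. At 30 to 40 Mb, the edge of the dense stretch, sheep had 8.20 ± 0.41 H3K4me3 peaks per Mb against 6.43 ± 0.39 in cattle and 6.22 ± 0.44 in goats. A megabase of a cattle arm corresponded to between 1.05 and 1.10 Mb of the sheep arm. These distances share the same chromosomes, so the curves are a description.

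**Figure D5:**
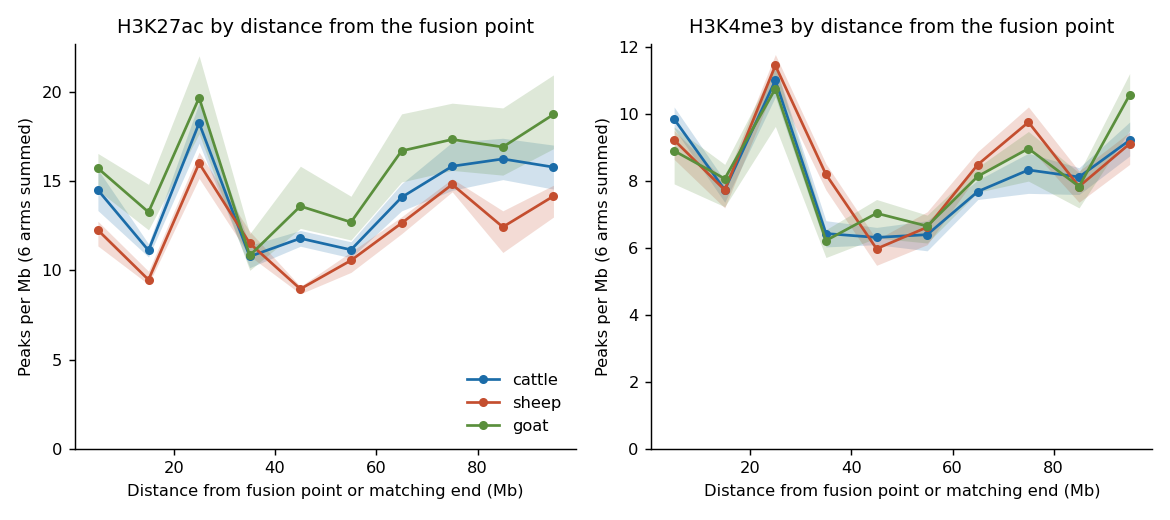
Peaks per Mb (y axis) in steps of 10 Mb from the sheep fusion point or from the matching end of the cattle and goat chromosomes (x axis, Mb), summed over the 6 arms. Lines are species means and bands run from the lowest to the highest library. The axis ends at 100 Mb. Within it both marks peak at 20 to 30 Mb in the 3 species, and the sheep line is the lowest for H3K27ac at most distances.

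The consensus regions nearest to the fusion points are shown because they lie where the former chromosome ends now meet. Their sides are those of the points estimated from cattle, and with the points estimated from goats all regions named here for sheep chromosome 1 lie before the point. On sheep chromosome 1 the nearest consensus region before the fusion point was an H3K4me3 region of 1338 bp at chr1:128244768-128246105 (Oar_rambouillet_v1.0), found in 3 of 3 sheep with a fold enrichment of 12.3 to 14.5. An H3K27ac region of 522 bp at chr1:128245206-128245727 lay inside it, so this is a region of both marks about 74 kb from the estimated point. The nearest on the other side was an H3K4me3 region without H3K27ac at chr1:128498253-128499658, found in 3 of 3 sheep with a fold enrichment of 3.67 to 4.53. Both distances on chromosome 1 are smaller than the 0.52 Mb by which the runs of its arms overlapped. On sheep chromosome 2 a region of both marks ended 305 kb before the point, with H3K4me3 over chr2:122053684-122055102 and H3K27ac over chr2:122053797-122055102. This distance is also below the 0.36 Mb between the runs of the arms. After the point came a weak H3K4me3 region found in 2 of 3 sheep at chr2:122526383-122526669, which lies before the point estimated from goats and at 166 kb is nearer than the 0.36 Mb between the runs of the arms, and the first H3K27ac region lay 1015 kb away at chr2:123374827-123375412.

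On sheep chromosome 3 the last H3K4me3 region before the fusion point was chr3:112556495-112558300, 1806 bp wide, found in 3 of 3 sheep and overlapped by H3K27ac. Nearer still lay a weak H3K27ac region without H3K4me3 at chr3:112626962-112627377, found in 3 of 3 sheep. The first after it was chr3:113711534-113713001, 1468 bp wide, with H3K27ac at chr3:113711622-113711899 in 2 of 3 sheep. The distances of these regions to the point, 692, 623 and 462 kb, are below the 1.1 Mb by which the runs of the arms missed each other. In the unfused species, the first regions lay close to most of the sequence starts that face the fusion point. For goat chromosomes 2 and 3 the facing end was itself set by the last peak, so no distance is given. The first consensus H3K4me3 region began 0.137 kb from the start of cattle chromosome 2 and 3.93 kb from the start of goat chromosome 5, and cattle chromosome 3 had the longest such distance in that species, 329 kb.

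On the sheep chromosomes the longest stretches free of peaks lay far from the fusion points. The longest on sheep chromosome 1 without a peak of either mark in any sheep ran for 1.97 Mb at chr1:166644270-168612129, 38.3 Mb from the fusion point. Those of sheep chromosomes 2 and 3 measured 2.09 and 2.07 Mb, at chr2:180763514-182856495 and chr3:56412423-58479777, and lay 58.4 and 54.8 Mb from the fusion points. The longest gaps of the counterparts were 2.52, 2.74 and 2.66 Mb in cattle (for the pairs of sheep chromosomes 1, 2 and 3) and 2.19, 1.996 and 2.84 Mb in goats. For the counterparts of sheep chromosome 2 it lay close to the end that faces the fusion point in sheep, at chr8:2419455-5156297 in cattle and chr8:1850217-3846664 in goats. Gaps over 1 Mb numbered 19 on sheep chromosome 1, 18 on chromosome 2 and 13 on chromosome 3. The cattle counterparts had 26, 15 and 14 such gaps and the goat counterparts 23, 21 and 11. Gap length depends on how many peaks the lists of a species hold, which was not equalized here.

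The strongest region of each mark, by pair and species, shared bases with a region of the other mark in all cases. In cattle (ARS-UCD1.2) the region with the best poorest rank by −log10 q was chr1:23561024-23561621 for H3K27ac, with rank 3 in both libraries and fold enrichments of 27.6 and 27.8. For H3K4me3 it was chr1:23561027-23561630, nearly the same interval, with rank 1 or 2 in the 3 libraries and fold enrichments of 27.1 to 27.5. On cattle chromosomes 8 and 11 the strongest regions of the marks also coincided, at chr8:128718-129548 and chr8:128722-129758, and at chr11:6751883-6752453 and chr11:6751884-6752456 (H3K27ac first). Signal of the inputs at these intervals was not checked here. In sheep (Oar_rambouillet_v1.0) the strongest H3K27ac region of chromosome 3 was chr3:132342716-132343226, with fold enrichments of 32.0 to 34.1, and the strongest H3K4me3 region was chr3:132342696-132343244, with 26.5 to 30.2. On sheep chromosomes 1 and 2 the strongest regions did not coincide. They were chr1:3017826-3018355 and chr1:3018609-3019149, and chr2:172293350-172294360 and chr2:7335461-7336569 (H3K27ac first).

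In goats (ARS1) the strongest regions of the marks did not coincide for any pair. The strongest H3K4me3 regions were chr1:146451759-146452938, chr8:64962542-64963779 and chr5:112894840-112895718, between 879 and 1238 bp wide, with fold enrichments between 16.1 and 17.9. The strongest H3K27ac regions of goats were chr3:101452137-101452558, chr2:37898194-37898753 and chr11:66180-67385. The last of these lies near the end of chromosome 11 that faces the fusion point in sheep. The widest H3K4me3 regions of the fused set measured 3378 bp in cattle (chr3:62632353-62635730), 3575 bp in sheep (chr3:139297489-139301063) and 3360 bp in goats (chr3:58565190-58568549). The sheep region lies on arm 5, and those of cattle and goats lie on chromosome 3, which forms an arm of sheep chromosome 1. The widest H3K27ac regions lay on chromosome 8 in cattle (chr8:74067834-74070844, 3011 bp) and goats (chr8:73861566-73864527, 2962 bp), and on arm 8 of sheep chromosome 2 (chr2:40882038-40885235, 3198 bp).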

How the data were processed

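Livers of 9 animals were profiled by ChIP-seq with antibodies against H3K27ac and H3K4me3. According to the methods and the submitters' processing notes, the authors trimmed reads with Trim Galore 0.4.0, aligned them with BWA 0.7.17 to ARS-UCD1.2 (cattle), Oar_rambouillet_v1.0 (sheep) or ARS1 (goats), removed duplicates with Picard 2.25.0, subsampled reads and called narrow peaks with MACS2 2.1.1 at q under 0.01. Lists were used per library. Whether the 9 inputs, which have no list here, served as background is not stated. The deposited values are interval positions, a score, a fold enrichment (a ratio to background, from the authors' caller) and −log10 p and −log10 q as the authors deposited them. The 840697 rows, 1 per summit, were joined into 1 peak per interval. A difference in sensitivity between libraries changes how many weak peaks a list holds, so shares within a library are preferred to numbers.

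Groups follow species and mark in the labels. Autosomes are the denominator because goat X is not assembled in ARS1. Peaks in at least 2 animals formed consensus regions. Profiles in 20000 bp bins, smoothed and correlated in 2 Mb windows every 1 Mb, placed the arms, and the fusion point is midway between the places where both runs reach the ends of their counterparts. Correspondence of the other 23 sets is by chromosome number with the known goat, cattle and sheep homologies, checked by the same matching. Species were compared by the sheep mean minus the average of the cattle and goat means, marks by permuting labels within species, and the fused set with the other autosomes by a sign-flip test over the animals. The sign-flip test measures constancy between animals, all scored on the same chromosomes. All tests are exact, and two-sided except F, with a threshold of 0.05. Benjamini-Hochberg adjustment covered the 52 tests of sets and the 6 tests of arms. Python 3.11.15, numpy 2.4.6, pandas 2.3.3 and scipy 1.17.1 were used. Overlaps, tests and matching were tested on simulated data, the overlaps against bedtools 2.31.1.

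Within a species the animal letters mark the same liver in the sample titles, so they pair the marks. Log2 peak numbers, as departures from their group means, correlated between marks with r = 0.30 over 8 animals, and those of the share on the fused set with r = -0.38, both given as a description. The members and lists were chosen with earlier results of these data known. Named regions were, by rule, the region of best poorest rank per pair, the widest per species, those nearest to the fusion points and the longest gaps. The fold enrichment, −log10 p and −log10 q were used to rank, filter or describe. Sequences, gene lists, liver markers and target genes were not analysed here, since no genome or annotation of these builds was used. Alternatives were a stricter q, the 20000 strongest peaks, every summit, merging within 500 bp, covered length, other denominators, overlap rules and distances, and leaving out each animal. The percent of peaks on the set near the fusion point and the matched sheep distance were added after seeing the data.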

Additional observations from a re-analysis of the deposited data

How the results depend on the processing

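Of 174 values under alternatives, 130 kept their direction and their side of the threshold. The mark difference in share (leaving out each animal: 1.25 to 1.45 points), the excess of H3K27ac peaks without H3K4me3 (2.89 to 3.17 points) and the wider H3K4me3 peaks (0.047 to 0.055 on the log2 scale) were among them under each alternative run for them, though their sizes moved: to 0.80 and 1.86 points for the first 2 among the 20000 strongest peaks, to 3.804 points for the first over all sequences, and to 0.029 for the width when merged within 500 bp. With the animal letter as a replicate block, the mark difference in share was 1.40 points (p = 0.00781, exact sign-flip test over 8 animals), and the block changed no call.

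The H3K27ac share in sheep missed the threshold at −log10 q of at least 5 (0.53 points), among the 20000 strongest peaks (0.45), when merged within 500 bp (0.32) and over all sequences (0.25). Leaving out each animal gave 0.28 to 0.53. The H3K4me3 share passed when merged (0.31), was 2.07 over all sequences, 0.13 at −log10 q of at least 5, 0.115 among the 20000 strongest, 0.12 with every summit counted and 0.083 by covered length, and ranged from 0.18 to 0.37 without single animals. Near the fusion point, H3K27ac passed as a percent of the set's peaks (-0.16) and among the 20000 strongest (-0.15), missed it over the matched sheep distance counted per 10 Mb of cattle (-0.19) and as a percent of the set's peaks over that distance (-0.057), and ranged from -0.36 to -0.24 without single animals. H3K4me3 passed among the 20000 strongest peaks (-0.29) and as a percent of the set's peaks (-0.19), turned positive over the matched distance counted per 10 Mb of cattle (0.10) or per Mb of sheep (0.010), and ranged from -0.062 to 0.025 without single animals, turning positive without sheep replicate A (0.025) or goat replicate C (0.0084). The H3K27ac width difference turned positive at −log10 q of at least 5 (0.017), among the 20000 strongest peaks (0.040), when merged (0.0063) and without cattle replicate C (0.0012), and ranged from -0.0026 to 0.0012. H3K27ac recurrence passed at −log10 q of at least 5 (-0.83), among the strongest peaks (-0.50) and with reciprocal overlap (-0.83), and ranged from -0.95 to -0.53. H3K4me3 recurrence passed at −log10 q of at least 5 (0.33) and with reciprocal overlap (0.52), and ranged from 0.16 to 0.35. The number of fused pairs whose share differed was 1 among the 20000 strongest peaks, and 2 with every summit counted or by covered length, against 0. Leaving out each animal gave 0 to 0. Arm balance was called in 1 comparison among the strongest peaks and in 0 to 1 without single animals. The causes were not tested.

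Depth was not checked, and 2 or 3 animals per group limit the precision. Leaving out cattle B or C leaves 1 H3K27ac library for cattle, taken to vary like the other groups. With 8 animals a sign-flip test cannot go below 0.00781. The sheep assembly is longer than the counterparts, so a density per Mb is not on one scale across species. The fusion points are estimates from peak patterns.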
